A study of Mus musculus with 7 samples.

Results

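The genes described here are 10 genes of tip cells and of the adrenomedullin and apelin pathways: Adm, Calcrl, Ramp2, Ramp3, Apln, Aplnr, Esm1, Cd34, Pdgfb and Unc5b. They were chosen by name, with earlier results of these data known. Of them, 9 had a row among the 12756 genes of the deposited table. The expression of Esm1 was not analysed here. The RNA came from retinas of adult C57BL/6 mice that all carried Cdh5-CreERT2 and Rpl22 tm1.1Psam, the RiboTag allele, in which Cre switches Rpl22, a ribosomal protein, to an HA-tagged form. Here Cre was driven by the promoter of Cdh5, the VE-cadherin gene of endothelial cells, so that tagged ribosomes could be pulled down with an anti-HA antibody. The comparison was between mice given a control IgG (3 libraries) and mice given an antibody against the Notch ligand Dll4 (4 libraries). The labels give neither the dose and timing of the antibodies nor the number of mice behind a library. The p-values therefore reflect only how much these libraries varied, which may include technical variation. The comparison asked which ribosome-bound transcripts differ when Dll4 is blocked.

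Tip cells lead a growing vessel sprout, and Dll4 on a tip cell activates Notch in its neighbours, which keeps them from becoming tip cells. Blocking Dll4 is known to give more tip cells in growing vessels. Adm encodes adrenomedullin, a secreted peptide that acts on endothelial cells through the receptor Calcrl together with an accessory protein, Ramp2 or Ramp3. Apln encodes the peptide apelin, which is made by tip cells, and Aplnr encodes its receptor. Esm1 is a secreted tip cell proteoglycan, Cd34 a sialomucin of the endothelial surface found on tip cell filopodia, Pdgfb the growth factor that recruits pericytes, and Unc5b a netrin receptor of tip cells and arteries.

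Adm and Cd34 were, with Ramp2, the genes with the largest differences, and their promoters are shown for that reason. RefSeq promoters (build GRCm38.p6) matched 7 of the 10 genes by symbol, Ramp2 not among them. The 250 bases before the start site of Adm lie at chr7:110627407-110627656 on the plus strand, and those of Cd34 at chr1:194938571-194938820 on the plus strand. Capitals mark the only match to a searched motif.
Adm: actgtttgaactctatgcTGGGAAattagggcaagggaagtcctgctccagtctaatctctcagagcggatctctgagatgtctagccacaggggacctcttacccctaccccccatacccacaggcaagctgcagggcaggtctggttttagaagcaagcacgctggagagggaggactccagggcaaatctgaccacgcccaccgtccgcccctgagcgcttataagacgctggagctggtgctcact
Cd34: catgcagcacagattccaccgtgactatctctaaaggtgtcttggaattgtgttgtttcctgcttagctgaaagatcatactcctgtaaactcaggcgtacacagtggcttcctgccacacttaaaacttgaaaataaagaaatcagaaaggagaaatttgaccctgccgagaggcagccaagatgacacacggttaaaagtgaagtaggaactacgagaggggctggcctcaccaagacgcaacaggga
The motifs searched on both strands were TGGGAA, the core bound by the Notch effector RBPJ, and ACGTG (the core of the hypoxia response element), whose matches may overlap where TG ends the second and begins the first. TGGGAA stood in the Adm window, starting 232 bases before the start site, and in none of the other 6 windows (0 of them). It was in 21.6% of the 32851 promoter windows of this length. ACGTG was in none of the 7 windows (0 matches) and in 16.6% of all windows. These matches describe the letters of this window only.

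The table held 1356192 to 1771086 reads per library. The summed shares of endothelial markers and of rod photoreceptor markers both differed between the groups, and every gene below is to be read beside them. The 19 pan-endothelial markers with values, of 21 listed and leaving out Ramp2 and Cd34, made up 0.218% ± 0.0457 of all CPM (SD, n = 3) in control and 0.435% ± 0.0509 (SD, n = 4) in anti-Dll4 libraries. CPM are read counts brought to the same total in each library. The groups did not overlap, at 0.190% to 0.271% and 0.389% to 0.505% (exact permutation p = 0.0286, two-sided, the smallest that 35 splits allow). These 19 markers did not all move alike. In the limma fit described below, 16 had a log2 change above 0 and 3 below, namely Kdr (-0.46), Flt1 (-0.38) and Ptprb (-1.32). Ly6c1 had means of 175 and 732 CPM in control and anti-Dll4 libraries (limma adjusted p = 0.0319), and Esam 242 and 779 CPM. The 16 rod markers made up 2.83% ± 0.0586 (SD, n = 3) and 1.81% ± 0.435 (SD, n = 4), with ranges of 2.78% to 2.89% and 1.27% to 2.26% (exact permutation p = 0.0571, two-sided). The summed shares of 9 of 13 mural cell markers (0.0249% to 0.0417% against 0.0198% to 0.053%) and of 11 of 12 Müller glia markers (0.174% to 0.291% against 0.151% to 0.277%) overlapped between the groups. So did those of 4 of 6 astrocyte markers (0.00389% to 0.0138% against 0.00175% to 0.0225%) and of 5 of 10 microglia markers (0.00324% to 0.0114% against 0.00263% to 0.0279%). The part of these other cell types in the values below was not tested. In such bulk samples, more cells of a type and more RNA per cell cannot be told apart. Rod markers held more of all CPM than endothelial markers in both groups, so the libraries also held RNA of other cells. The part of the pull-down itself in these shares was not tested.

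**Figure D1:**
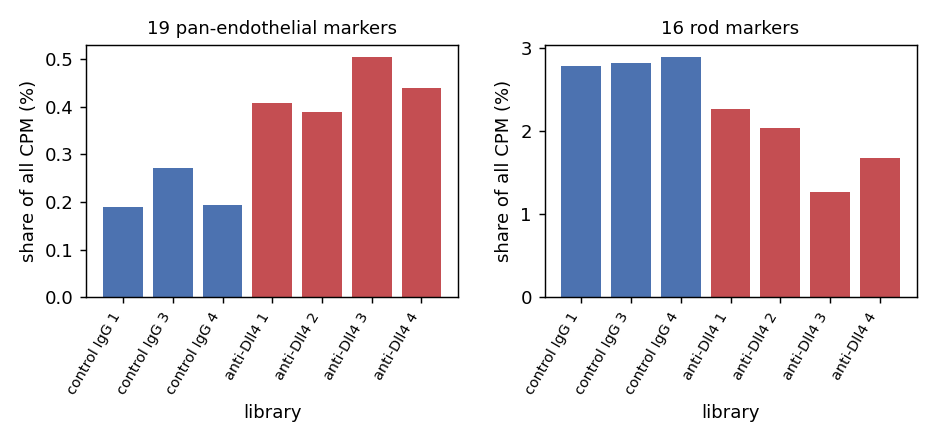
Share of all CPM, in percent, held by 19 pan-endothelial markers (left) and 16 rod markers (right) in each library, with control IgG in blue and anti-Dll4 in red. All 4 anti-Dll4 libraries stand at 0.389% or above for endothelial markers, where the highest control library is at 0.271%, and at or below 2.26% for rod markers, where the lowest control library is at 2.78%.

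Of the 9 genes, 7 passed the filter on low values (3 or more libraries at 1 CPM or above) and were tested with limma on log2(CPM + 1). None of these 7 was called at an adjusted p under 0.05 (0 genes in limma, and 0 with voom on whole reads), where 0.119% of the 10899 genes tested were called by limma and 0.349% by voom. At an unadjusted p under 0.05, 3 of the 7 were higher in anti-Dll4 libraries and 0 lower, namely Ramp2, Cd34 and Adm. Voom gave the same 3 at that level. Adm passed the filter only through its anti-Dll4 libraries, so its place in this count is not independent support. Of all tested genes, 3.68% were higher and 3.41% lower at that level in limma. The change was above 0 for 6 of the 7, and their median log2 change was 0.69, where 45.5% of all tested genes had a change above 0 and their median was -0.14. The genes were chosen with earlier results of these data known, so these counts are not an independent test. Apln and Aplnr were below the filter and have values but no test.

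**Figure D2:**
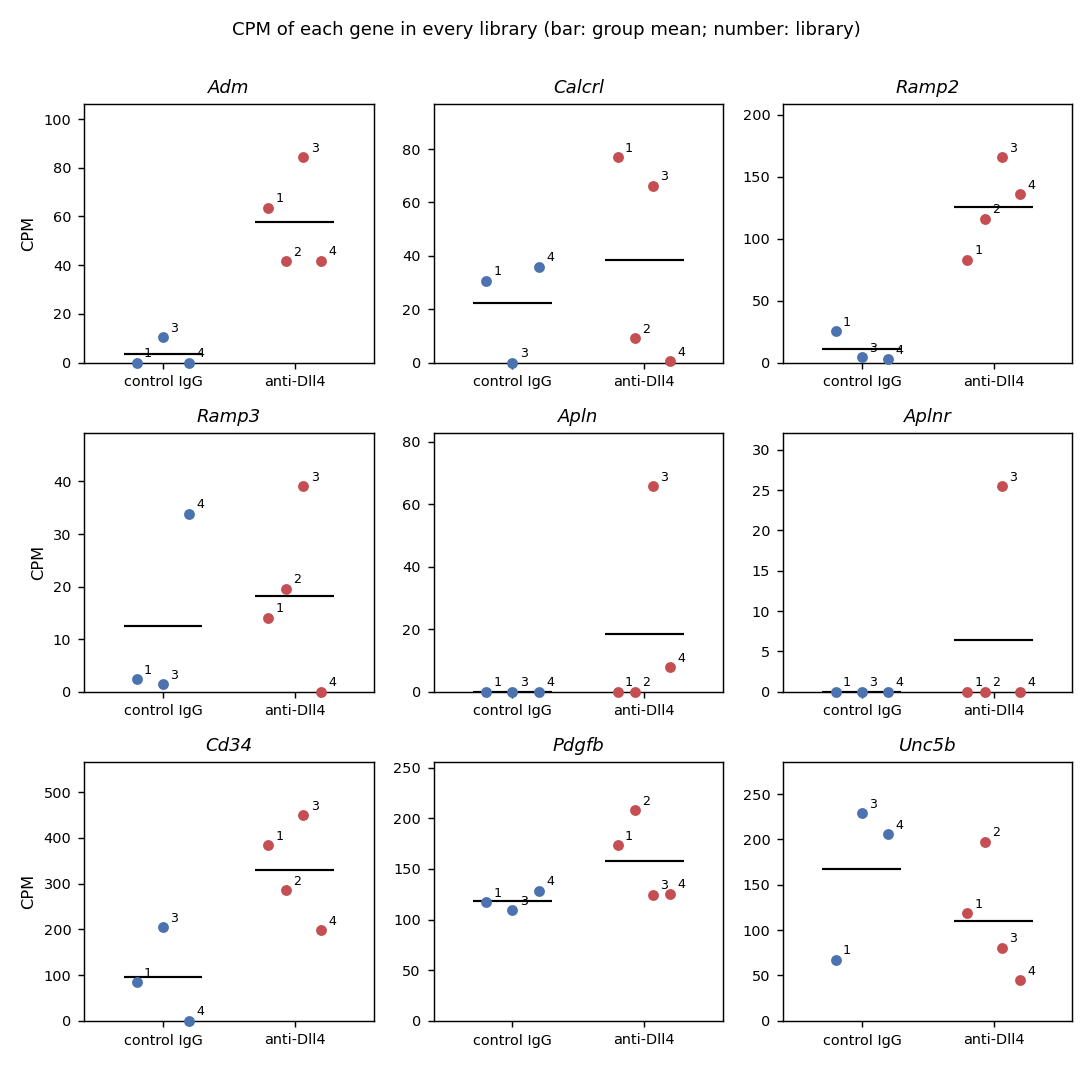
CPM (vertical axis, linear and with its own scale in each panel) of the 9 genes in the 3 control IgG libraries (blue) and the 4 anti-Dll4 libraries (red); bars are group means and the small numbers name the library. Adm and Ramp2 show no overlap between the groups, Apln and Aplnr have reads in anti-Dll4 libraries only, and the groups overlap for the other 5 genes.

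The ligand Adm was nearly absent from control libraries and present in every anti-Dll4 library. Its reads numbered 0, 14 and 0 in control IgG 1, 3 and 4, and 95, 68, 149 and 74 reads in anti-Dll4 1 to 4. In CPM these are 0, 10.3 and 0 against 63.6, 41.6, 84.4 and 41.8. A count of 0 allows up to 3 reads, which is 1.77 CPM in control IgG 1 and 1.96 CPM in control IgG 4. The lowest anti-Dll4 library stood above the highest control library, so the groups did not overlap. The means were 3.44 ± 5.96 CPM (SD, n = 3) and 57.8 ± 20.5 CPM (SD, n = 4), a 16.8-fold ratio of means that rests on the 14 reads of control IgG 3. The log2 change was 4.65 ± 1.58 (SE), with a limma adjusted p of 0.482 and a 95% interval of 1.36 to 7.93 before adjustment. With 5 CPM added in place of 1 the change was 3.06. Voom gave an adjusted p of 0.0893 for Adm. Antisense genes lie over the ends of Adm and Cd34 in GENCODE M21, and reads of such a pair cannot be told apart where strand was not used in counting.

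Ramp2, the accessory protein that makes Calcrl an adrenomedullin receptor, was also higher in every anti-Dll4 library than in any control library. Control IgG 1, 3 and 4 gave 43, 6 and 4 reads of Ramp2, and anti-Dll4 1 to 4 gave 124, 190, 293 and 241. The values were 25.4, 4.42 and 2.61 CPM against 83.0, 116, 166 and 136 CPM. Control IgG 1 was the highest of the controls, at less than the lowest anti-Dll4 library. The means were 10.8 ± 12.7 CPM (SD, n = 3) and 125 ± 34.8 CPM (SD, n = 4), an 11.6-fold ratio that became 35.6-fold without control IgG 1. The log2 change was 3.93 ± 1.05 (SE), with a limma adjusted p of 0.249, and Ramp2 ranked 50 among all tested genes by p. Vps25, a gene on the same strand that overlaps the end of Ramp2 in GENCODE M21, gave 9, 26 and 117 reads with control IgG and 49, 9, 15 and 6 with anti-Dll4. Its log2 change was -1.13 ± 1.61 (SE) (limma adjusted p = 0.912).

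With Adm and Ramp2, 2 of the 7 tested genes had groups that did not overlap, both of them higher in anti-Dll4 libraries. Among all tested genes, 7.59% had groups without overlap, and 3.84% lay wholly higher in anti-Dll4 libraries. Adm passed the filter only through its anti-Dll4 libraries, and the 7 genes were chosen with earlier results of these data known.

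Calcrl is the receptor that Ramp2 and Ramp3 accompany. The control libraries gave 52, 0 and 55 reads and the anti-Dll4 libraries 115, 15, 117 and 1, or 30.7, 0 and 35.8 CPM against 77.0, 9.17, 66.3 and 0.565 CPM. Each group held a library with at most 1 read, and the groups overlapped. The log2 change was 0.69 ± 1.83 (SE), with a limma adjusted p of 0.958 and an interval of -3.11 to 4.49. It was -1.01 without control IgG 3. These libraries therefore leave the direction of Calcrl undetermined.

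Ramp3, the other accessory protein of Calcrl, was read 4, 2 and 52 times with control IgG and 21, 32, 69 and 0 times with anti-Dll4. The values were 2.36, 1.47 and 33.9 CPM against 14.1, 19.6, 39.1 and 0 CPM. Control IgG 4 stood with the higher anti-Dll4 libraries, and anti-Dll4 4, at 0 reads, with the other controls. Ramp3 had a log2 change of 0.67 ± 1.80 (SE), with a limma adjusted p of 0.959 and an interval of -3.07 to 4.42. Across the 7 libraries the log2 values of Calcrl and Ramp3 had a Pearson r of 0.76, and those of Adm and Ramp2 one of 0.77. Such values were not particular to receptor or ligand partners. Adm with Cd34 was at 0.79 and Ramp2 with Cd34 at 0.73, while Calcrl with Ramp2 was at 0.18 and Adm with Calcrl at -0.07. Adm and Ramp2 are separated by group, and all these values share the same libraries.

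Other genes of the adrenomedullin and apelin pathways, from receptors and peptide-processing enzymes to G proteins and arrestins, had values for 11 of 18. Of the 8 tested, 0 were called by limma, 2 were higher and 0 lower at an unadjusted p under 0.05, and 7 had a change above 0. Their median change was 0.78. Over all tested genes, 3.68% were higher and 3.41% lower at that level, 45.5% had a change above 0, and the median was -0.14. Gnai2, an inhibitory G protein alpha subunit of the kind that apelin receptors couple to, gave 220, 151 and 178 reads with control IgG and 481, 590, 821 and 988 with anti-Dll4. Its log2 change was 1.80 ± 0.44 (SE) (limma adjusted p = 0.158). Gnas, the stimulatory alpha subunit through which adrenomedullin receptors raise cyclic AMP, had a log2 change of 1.59 ± 0.57 (SE) (limma adjusted p = 0.529). Both are made by most cell types.

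Apln had no read in any control library (0, 0 and 0) and 0, 0, 116 and 14 reads in anti-Dll4 1 to 4. In CPM, anti-Dll4 3 was at 65.7 and anti-Dll4 4 at 7.90. Aplnr had 45 reads, 25.5 CPM, in anti-Dll4 3 and 0 in the other 6 libraries. A count of 0 allows up to 1.69 to 2.21 CPM, depending on the library. Both genes of the pair thus had their highest value in the library anti-Dll4 3, and 2 of the 4 anti-Dll4 libraries were at 0 for Apln, as all controls were. That library also held the highest endothelial marker share, 0.505%, and the lowest rod marker share, 1.27%, and their part in the Apln and Aplnr values was not tested. No fold is given for either gene.

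Cd34 had the most reads of the set over all 7 libraries together, though not in the control libraries alone. Its reads numbered 143, 277 and 1 with control IgG and 573, 466, 793 and 352 with anti-Dll4. The values were 84.4, 204 and 0.652 CPM against 384, 285, 449 and 199 CPM. Control IgG 3 lay just above anti-Dll4 4, so the groups overlapped by that pair, and control IgG 4 was far below every other library. The means were 96.4 ± 102 CPM (SD, n = 3) and 329 ± 110 CPM (SD, n = 4), a 3.41-fold ratio that became 7.74-fold without control IgG 3 and 2.28-fold without control IgG 4. On the log2 scale the change was 3.36 ± 1.06 (SE), with a limma adjusted p of 0.393. It was 1.25 without control IgG 4, whose single read sets most of the change on the log scale. A library with at most 3 reads was found for 137 of 3085 genes (4.44%) with a mean of 50 to 200 CPM in the control libraries, and for 465 of 3346 such genes (13.9%) in the anti-Dll4 libraries, a range chosen after the values of Cd34 were seen.

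The genes whose log2 values followed Cd34 most closely over the 7 libraries, among 4291 whose log2 values averaged 5 or more, were Rtl8b, Mitd1 and Pdpk1 (Pearson r of 0.98 each). In all, 50 of these genes had an r over 0.9, and all share the same libraries. In the list of Cd34 relatives and partners, 0 of 6 tested genes were called by limma. Their median change was -0.43, where that of all tested genes was -0.14. At an unadjusted p under 0.05, 1 was higher, as were 3.68% of all tested genes. That gene was Podxl, podocalyxin, a sialomucin of the same family. Podxl gave 1516, 2415 and 2200 reads with control IgG and 3280, 4109, 7085 and 5120 with anti-Dll4, groups that did not overlap. Its log2 change was 1.10 ± 0.26 (SE), with a limma adjusted p of 0.137, and voom called it. Podxl2, a further member of the family, had at most 20 reads in a library and a log2 change of -1.56 ± 1.14 (SE) (limma adjusted p = 0.802).

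Pdgfb had overlapping groups, and its control libraries were the most even of the 7 tested genes. Control IgG gave 198, 148 and 197 reads and anti-Dll4 259, 340, 220 and 222. The values were 117, 109 and 128 CPM against 173, 208, 125 and 125 CPM. Anti-Dll4 1 and 2 lay above all controls, and anti-Dll4 3 and 4 between the controls. Its log2 change was 0.38 ± 0.55 (SE), with a limma adjusted p of 0.912 and an interval of -0.75 to 1.52. The control reads varied about as much as counting alone gives, with a chi-square per degree of freedom of 1.15, against 12.6 to 163 in every other group of the 7 tested genes. Among other genes of the PDGF family, 4 of 6 had values and 0 of 3 tested were called by limma or had an unadjusted p under 0.05. Furin, a protease that cuts precursors of growth factors, had a log2 change of 0.31 ± 0.53 (SE), and Pdgfa, a related ligand, one of 0.41 ± 0.79 (SE) (limma adjusted p of 0.928 and 0.94).

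Unc5b was the only tested gene of the set with a change below 0. The control libraries gave 114, 310 and 316 reads, and the anti-Dll4 libraries 177, 323, 142 and 79. The values were 67.3, 229 and 206 CPM against 119, 198, 80.4 and 44.6 CPM. Control IgG 1 lay below 3 of the 4 anti-Dll4 libraries, and the groups overlapped. The log2 change was -0.61 ± 0.67 (SE), with a limma adjusted p of 0.882 and an interval of -2.01 to 0.78. Without control IgG 1 it was -1.17, and the groups then did not overlap.

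Of the netrin, Unc5 and Robo guidance genes, 12 of 15 had values and 0 of the 8 tested were called by limma. At an unadjusted p under 0.05, 1 was higher and 1 lower, and the median change was -0.61. Over all tested genes, 3.68% were higher and 3.41% lower at that level, and the median was -0.14. Ntn1, which encodes netrin 1, a ligand of Unc5b, gave 0 reads in each control library and 13, 35, 72 and 1 with anti-Dll4 (limma adjusted p = 0.664). Ntn1, the gene counted as higher, passed the filter only through its anti-Dll4 libraries. Unc5c, another netrin receptor, gave 194, 124 and 139 reads with control IgG and 32, 0, 51 and 130 with anti-Dll4, for a change of -2.73 ± 1.30 (SE) (limma adjusted p = 0.696).

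Further tip cell genes had values for 22 of 24, and of the 20 tested 0 were called by limma and 15 had a change above 0. Their median was 0.47, where 45.5% of all tested genes had a change above 0 and their median was -0.14. The antibody target Dll4 was the only one of the 20 with an unadjusted p under 0.05. Dll4 transcripts stood at 2, 16 and 34 reads with control IgG and at 68, 300, 211 and 246 with the antibody, for a log2 change of 3.67 ± 1.10 (SE) (limma adjusted p = 0.358). The antibody binds the protein, so these reads do not check the blockade. Flt4, the receptor of VEGF-C, had the second smallest p of this list, with 0, 121 and 70 reads under control IgG, 0, 8, 4 and 0 under anti-Dll4, and a log2 change of -2.95 ± 1.68 (SE) (limma adjusted p = 0.738).

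Adm and Apln are both known to be induced by hypoxia, and a list of 20 symbols of hypoxia-induced genes, 2 of them names of the same gene, gave values for 18. Of the 17 tested, 1 was called higher and 0 lower by limma, where 0.119% of all tested genes were called. At an unadjusted p under 0.05, 2 were higher (Ddit4 and Slc2a1) and 1 lower (Vegfa). Slc2a1 had a log2 change of 1.52 ± 0.37 (SE) and Vegfa one of -1.89 ± 0.88 (SE) (limma adjusted p of 0.164 and 0.695). The change was above 0 for 8 and below for 9, with a median of -0.14. Of all tested genes, 45.5% had a change above 0, and their median was also -0.14. The gene called was Ddit4, an inhibitor of mTORC1 signalling, which gave 878, 646 and 1015 reads with control IgG and 2673, 1933, 3566 and 3500 with anti-Dll4. Its log2 change was 1.64 ± 0.28 (SE) (limma adjusted p = 0.0158). The call was lost when anti-Dll4 1, anti-Dll4 4 or control IgG 1 was left out. It was also lost with libraries scaled to equal pan-endothelial markers, with the rod covariate and without the mean-variance trend.

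Set against the summed endothelial markers, which did not all move alike, the genes differed among themselves. Per 1000 reads of the 19 pan-endothelial markers, Adm stood at 0, 3.81 and 0 in control and at 15.6, 10.7, 16.7 and 9.52 in anti-Dll4 libraries. Ramp2 stood at 13.3, 1.63 and 1.35 against 20.4, 29.9, 32.9 and 31.0. For both the groups still did not overlap, with anti-Dll4 higher. Once scaled this way, 17.7% of all tested genes had groups without overlap in either direction. This scaling moves genes down, and the share lying wholly higher was not counted. Cd34 was at 44.4, 75.4 and 0.337 against 94.1, 73.3, 89.0 and 45.3, which overlap.

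On the same scale Pdgfb was at 56.1 ± 13.9 (SD, n = 3) in control and 37.3 ± 13.2 (SD, n = 4) in anti-Dll4 libraries, and Unc5b at 75.4 ± 36.5 (SD, n = 3) and 26.5 ± 18.0 (SD, n = 4). With libraries scaled to equal pan-endothelial markers, the median change of all tested genes moved from -0.14 to -1.01, and values are to be read against that. The log2 changes then were 4.21 ± 1.64 (SE) for Adm, 3.02 ± 1.08 for Ramp2 and 2.50 ± 1.08 for Cd34. Those of Calcrl (-0.12 ± 1.85), Ramp3 (-0.12 ± 1.80) and Pdgfb (-0.62 ± 0.59) turned to below 0 under this scaling, and Unc5b was at -1.61 ± 0.70. None of the 7 was called by limma (0 genes, adjusted p from 0.159 to 0.979), where 0.734% of all tested genes were, and 3 were higher and 1 lower (Unc5b) at an unadjusted p under 0.05, where 0.927% of all tested genes were higher and 17.5% lower.

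**Figure D3:**
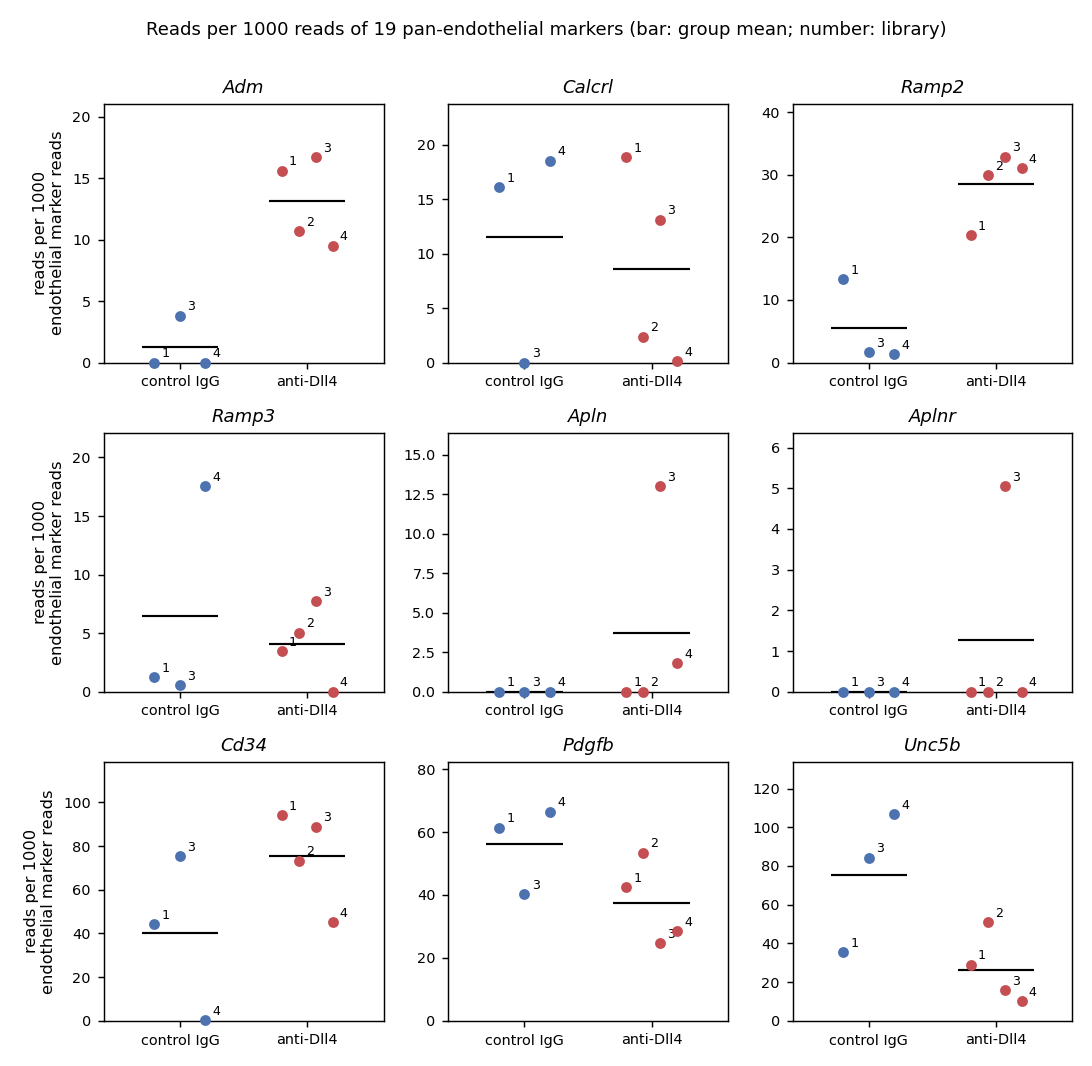
Reads per 1000 reads of 19 pan-endothelial markers (vertical axis, linear and with its own scale in each panel) for the 9 genes in each control IgG (blue) and anti-Dll4 (red) library; bars are group means. Adm and Ramp2 keep groups without overlap, while Pdgfb and Unc5b have lower means in anti-Dll4 libraries, 37.3 against 56.1 and 26.5 against 75.4.

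With the mean of the rod markers as a covariate, the changes of Adm, Ramp2 and Cd34 were 4.46 ± 2.11, 3.64 ± 1.39 and 3.73 ± 1.48 (SE). Their limma adjusted p were then 0.848, 0.846 and 0.846. The changes of Calcrl (-0.52 ± 2.46) and Ramp3 (-0.46 ± 2.42) turned below 0, and Pdgfb was at 0.71 ± 0.70 and Unc5b at -0.14 ± 0.88. The rod marker shares of the groups did not overlap, so these libraries cannot well tell the covariate from the antibody.

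**Figure D4:**
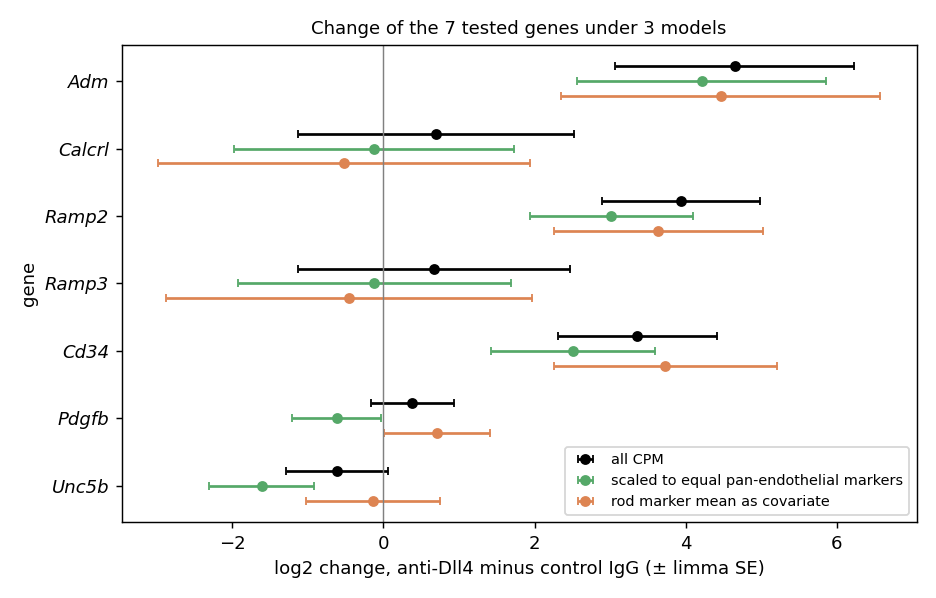
Log2 change (horizontal axis, anti-Dll4 minus control IgG, with limma SE) of the 7 tested genes on all CPM (black), with libraries scaled to equal pan-endothelial markers (green) and with a rod marker covariate (orange). Adm, Ramp2 and Cd34 stay above 0 by more than 1 SE under all 3, at 2.50 or higher, while Calcrl and Ramp3 lie within 1 SE of 0 in each.

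Leaving out a library in turn gave changes of 4.06 to 5.82 for Adm, 3.36 to 4.79 for Ramp2 and 1.25 to 4.73 for Cd34. The same 3 genes had an unadjusted p under 0.05 in each of these 7 fits. Their adjusted p stayed above 0.05 in all of them, the lowest being 0.0765 for Cd34. Calcrl ran from -1.01 to 1.84, Ramp3 from -0.037 to 1.87, Pdgfb from 0.24 to 0.49 and Unc5b from -1.17 to -0.25. With all 7 libraries but no mean-variance trend, only Adm and Ramp2 kept an unadjusted p under 0.05. Cd34 was then at 3.36 ± 1.55 (SE), with a limma adjusted p of 0.794.

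**Figure D5:**
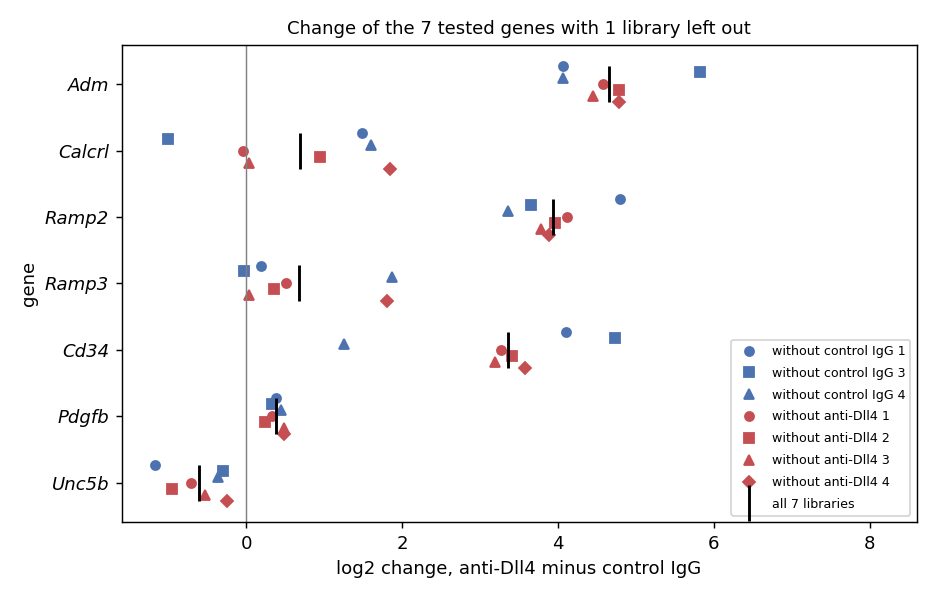
Log2 change (horizontal axis, anti-Dll4 minus control IgG) of the 7 tested genes with each library left out in turn (blue for control IgG, red for anti-Dll4) beside the value from all 7 libraries (black tick). Cd34 is at 1.25 without control IgG 4 and at 3.19 or higher otherwise, and Calcrl and Ramp3 reach from below 0 to 1.84 and 1.87.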

How the data were processed

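Libraries of the QuantSeq kind, which sample transcripts at their polyadenylated end, were sequenced from RNA bound to tagged ribosomes, per the labels' protocols. The tools cutadapt, TopHat2 and bedtools and the human build hg19 are named in the submitters' processing notes, although the table holds mouse symbols. For annotation and strand use, the sources used here state nothing. The authors deposited log10 values. Raised to the power of 10 and less 1, they summed to 1000000 CPM per library, and 100% of the values were whole multiples of a single read (tolerance 1e-06), so reads were computed. Reads carry no stated molecular identifiers, so floors of 3 reads cover counting error only.

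Libraries carry the number of their column. No control title has the number of the column control IgG 1, which was used as a control library by its column name. The remaining control sample, whose title number matches no column, was not assigned to it.

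The fits used log2(CPM + 1), where the added 1 shrinks changes of low genes. The 10899 genes that reached 1 CPM in 3 or more libraries were fitted with limma 3.58.1 in R 4.3.3 (antibody as the only term, mean-variance trend, two-sided, Benjamini-Hochberg adjustment over all tested genes). Log2 values had been planned for, so the log10 values were converted. Alternatives were other pseudocounts, filters and scalings, library weights, voom, a replicate block, a rod covariate and each library left out. The 10 genes and the lists were chosen with earlier results of these data known. Beside the 10 genes, the text names from each pathway list up to 4 called genes or, failing that, the 2 with the smallest p, and the 3 genes most like the gene with the highest mean CPM. Vps25 was chosen by its position, and Slc2a1, Vegfa and the named endothelial markers after their values were seen.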

Additional observations from a re-analysis of the deposited data

Results flagged for a closer look

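Aplnr in the anti-Dll4 group was marked because a single library stood apart from the other 3. Its log2(CPM + 1) was 0 in anti-Dll4 1, 2 and 4 and came from 45 reads in anti-Dll4 3, so that the gap to the nearest library was the whole range (Dixon ratio 1, above the 95% critical value for 4 samples). Any gene with reads in a single library of the 4 gives this ratio, so the usual rate of about 1 chance mark in 20 groups does not apply to it. In all, 11 groups were examined: the 9 genes and the endothelial and rod marker shares. Groups of 3 control libraries were not examined.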

How the results depend on the processing

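The number of the 7 tested genes called was 0 under every alternative run (18 of them), and Adm, Ramp2 and Cd34 kept a change above 0 in all 18. The number of genes called over all genes, 13, was 80 with libraries scaled to equal pan-endothelial markers (2 higher and 78 lower), 0 without the mean-variance trend, 23 with library weights, 38 with voom (14 higher and 24 lower), 1 with the rod covariate, and 3 to 20 with a library left out. Genes with a change above 0 went from 6 to 3 under the endothelial scaling, which by construction moves all genes down (median change from -0.14 to -1.01). Genes whose groups do not overlap went from 2 to 4 with equal medians, Cd34 and Pdgfb being added. The share of all tested genes without overlap was not counted with equal medians, so this rise cannot be read as particular to these genes. Calls in the pathway lists went from 1 to 0 under the endothelial scaling, without the trend and with the rod covariate, to 2 with voom, and ran from 0 to 1 with a library left out. Changes that turned below 0 were those of Calcrl (-0.12 under endothelial scaling, -0.52 with the rod covariate, -1.01 to 1.84 with a library left out), Ramp3 (-0.12, -0.46, and -0.037 to 1.87) and Pdgfb (-0.62 under endothelial scaling). Calcrl was at -0.041 without anti-Dll4 1. Apart from the endothelial scaling, the cause was not tested. The difference in endothelial marker share was 0.194 to 0.243 percentage points with a library left out (exact permutation p of 0.0667 or 0.1, the smallest those designs allow). The rod share difference without its most abundant gene was -0.747 percentage points (exact permutation p = 0.0286).

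Only numbers 3 and 4 are shared by titles of both groups. Same-numbered libraries deviated together with r of 0.05 and 0.07. No values of differently numbered libraries stand beside these, so they cannot decide whether the numbers pair samples. The main fit took no pairing. With a replicate block (consensus correlation 0.10), 0 of the 7 genes and 16 over all genes were called. Adm, Calcrl, Ramp3, Apln and Aplnr had libraries at 0 reads, a count that allows a level of up to 1.69 to 2.21 CPM, depending on the library.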
